A study of Sus scrofa with 92 samples.

Results

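The genes described here encode the lipid droplet co-activator ABHD5 and 5 proteins that act with it or next to it in the release of stored fat: PNPLA2, PLIN2, ANGPTL4, LIPE and MGLL. They are 6 of the 25322 Ensembl pig identifiers in the count table, found by their symbols, and all 6 passed the filter on low counts. The members were chosen by measured values, among them the change of ABHD5 from Baseline, so every change from Baseline given for the 6 genes is a description without a test. Liver was sampled from juvenile male Yorkshire-Landrace pigs that were fasted overnight, splenectomized, given polytrauma with a crush of the liver, bled into shock and resuscitated. The 18 FS animals stayed fasted, and the 5 carbohydrate prefed (CPF) animals were given a bolus of diluted Karo syrup 1 hour before induction of anesthesia. Biopsies from the edge of the liver were taken before shock (Baseline, B) and again when resuscitation had run for 2 (FR2), 8 (FR8) and 20 hours (FR20), from the same animals each time. No uninjured animals entered the table, so time, anesthesia, injury, repeated biopsy and resuscitation cannot be told apart, and the libraries of 3 FS and 2 CPF animals came from pigs labelled as having died.

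A lipid droplet is a core of triglyceride under a coat of proteins. PNPLA2 (adipose triglyceride lipase, ENSSSCG00000012841) removes the first fatty acid from triglyceride, LIPE (hormone-sensitive lipase, ENSSSCG00000003018) the next one, and MGLL (monoglyceride lipase, ENSSSCG00000024134) the last, which leaves glycerol. ABHD5 (also CGI-58, ENSSSCG00000011297) has no lipase activity of its own towards triglyceride and activates PNPLA2, while the coat protein PLIN2 (perilipin 2, ENSSSCG00000005171) shields the droplet and is degraded when no droplet carries it. ANGPTL4 (ENSSSCG00000013599) is a secreted inhibitor of lipoprotein lipase and a well known target of the fatty acid sensing PPAR receptors. In liver PNPLA2, ABHD5 and PLIN2 help set how quickly stored triglyceride is turned into fatty acids for oxidation or for export as lipoprotein.

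Of 92 libraries, 88 were used: 15 FS at B, 18 FS at each later timepoint, 5 CPF at B, FR2 and FR20, and 4 CPF at FR8. Used libraries held 6877117 to 16613261 counts with a median of 12071958. The library of CPF animal 3 at FR8 held 4388 counts and was left out, as were the Baseline libraries of FS animals 17, 19 and 21, which held 4, 899 and 5 counts of ALB (albumin, the main secretory product of hepatocytes) and 385464, 465108 and 402467 counts of ACTA1 (skeletal muscle actin). Several of the used libraries went against their timepoint labels. When each library was correlated with the mean profile of the other animals at each timepoint, over 8053 genes that exclude every gene on the lists used here, 18 of 88 libraries were nearest to a timepoint other than their own, 16 of them by at least 0.1 in r. All 9 used libraries of FS animals 17, 19 and 21 were among these, with their FR2, FR8 and FR20 libraries nearest to FR8, B and FR2. The rest were the B, FR2 and FR8 libraries of FS animal 10, the FR8 and FR20 libraries of FS animal 9, and the FR20 libraries of FS animal 20 and CPF animal 13. The Baseline library of FS animal 4 matched no timepoint well, with r of 0.01 with B and 0.068 with FR8, the nearest. It fell short of the 0.1 margin, so animal 4 is not among the 7 animals left out below. The FR2 and FR8 libraries of FS animal 11 also matched no timepoint well, with r of at most 0.063 and 0.097. In these libraries 661 and 658 of 6751 genes with a median of at least 100 counts were at 0, against at most 1 such gene in any other used library. The genes at 0 in both took a median of 13.9% of the counts of the other libraries. None of the 6 members was among them, and without these 2 libraries no member gained or lost a call between later timepoints. Labels were kept as deposited, and results are also given without animals 17, 19 and 21 and without all 7 animals that had such a library. The 7 were picked from expression in the same libraries, in part by how poorly they followed the time course, so a call gained without them is not independent evidence.

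ABHD5 had a median of 136 CPM (counts scaled by the TMM library size) in FS animals at Baseline and stood several times higher 2 hours into resuscitation. In FS animals its lowest, median and highest levels were 81.0, 136 and 603 CPM at B, 313, 582 and 1022 CPM at FR2, 70.2, 484 and 782 CPM at FR8 and 287, 435 and 1034 CPM at FR20. The ranges overlapped at every timepoint, through high Baseline values of 603 CPM in animal 4 and 393 CPM in animal 10 and through FR8 values of 70.2, 186 and 183 CPM in animals 17, 19 and 21. The Baseline libraries of animals 4 and 10 were nearest to FR8 in their whole profiles, that of animal 4 only weakly (r = 0.068). The within-animal fit put ABHD5 at a log2 change of 1.86 ± 0.24 (SE) at FR2, 1.52 ± 0.23 at FR8 and 1.57 ± 0.24 at FR20, which are folds of 3.64, 2.88 and 2.97. It was higher than at Baseline in 14 of 15 FS animals at FR2, in 15 of 15 at FR8 and in 13 of 15 at FR20. Of all genes tested, 11%, 11.8% and 9.94% were called in these FS comparisons and 2.41%, 8.83% and 0.702% in the CPF ones, a background from which nothing is read here because the members were chosen on this contrast. Without animals 17, 19 and 21 the FS changes of ABHD5 were 1.89, 1.70 and 1.31, and without the 7 animals 2.00, 1.76 and 1.36.

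In the CPF animals ABHD5 started at 161, 153, 276, 104 and 152 CPM (animals 3, 7, 8, 13 and 18) and was at 564, 459, 262, 672 and 729 CPM at FR2. Animal 8, with the highest Baseline value, was the only one of the 5 that did not stand higher at FR2. At FR8 the 4 remaining values, 314, 571, 379 and 408 CPM in animals 7, 8, 13 and 18, lay above all 5 Baseline values. By FR20 the CPF levels were 391, 238, 382, 140 and 267 CPM, each higher than the same animal's Baseline but overlapping the Baseline range. The fitted log2 changes were 1.76 ± 0.42 at FR2, 1.37 ± 0.43 at FR8 and 0.73 ± 0.40 (SE) at FR20. Animal 13 supplied the lowest FR20 value, from the library nearest to Baseline in its whole profile, and without that animal the FR20 change was 0.78.

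**Figure D1:**
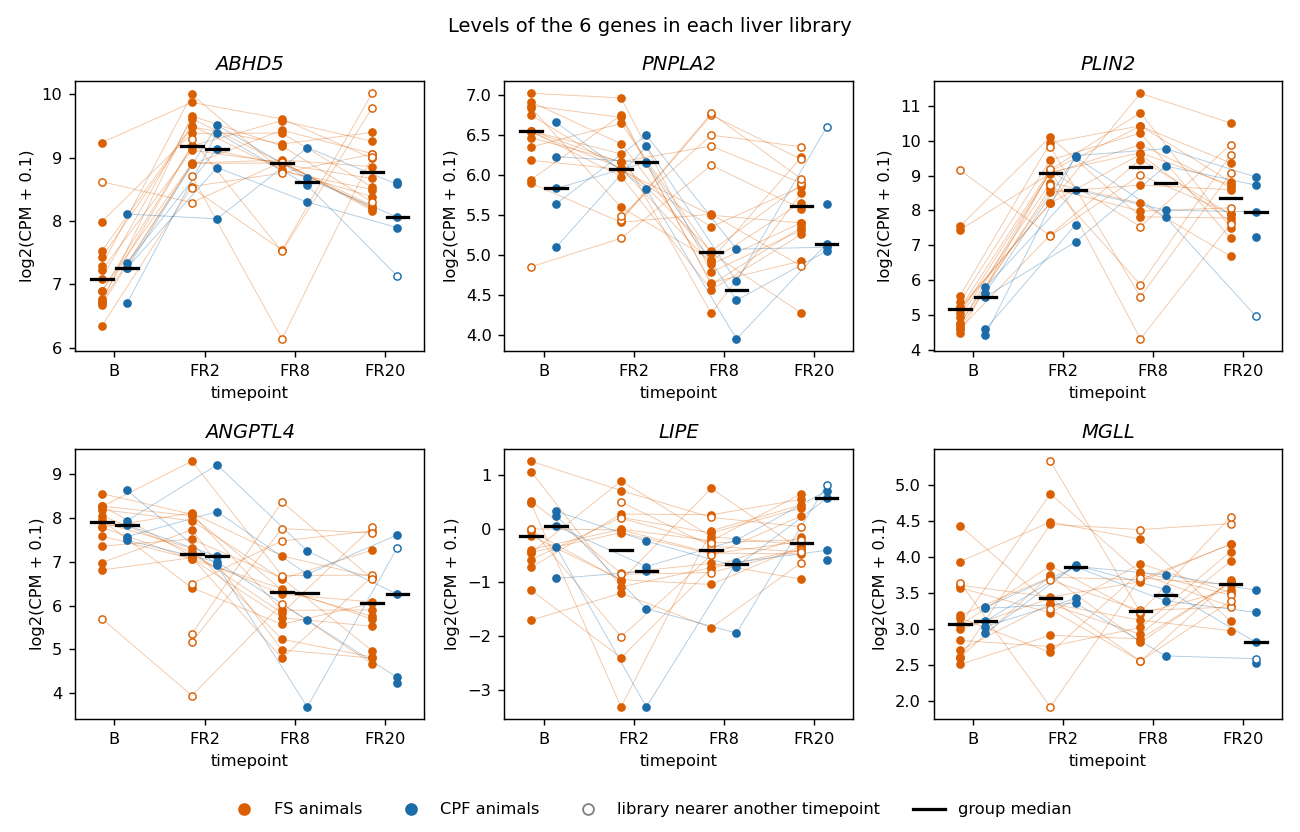
Level of each of the 6 genes in each of the 88 libraries by timepoint, on a log2(CPM + 0.1) axis, with lines joining the libraries of 1 animal, black bars at group medians and open circles for the 16 libraries whose whole profile was nearer to another timepoint. ABHD5 and PLIN2 have higher medians after resuscitation than at B, and PNPLA2 and ANGPTL4 have lower medians at FR8 and FR20.

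PLIN2, the droplet coat protein, had the largest fitted rise of the 6 genes in both feeding groups. In FS animals its lowest, median and highest levels were 22.3, 35.9 and 567 CPM at B, 155, 539 and 1103 CPM at FR2, 19.8, 611 and 2619 CPM at FR8 and 103, 328 and 1453 CPM at FR20. The Baseline range reached that far only through 3 animals, with 567 CPM in animal 10, 188 CPM in animal 4 and 175 CPM in animal 15. Animals 17, 19 and 21 had 19.8, 58.5 and 46.0 CPM in the libraries labelled FR8, the first below the lowest Baseline value and the others among the Baseline values. The fitted log2 changes from B were 3.25 ± 0.51 at FR2, 3.51 ± 0.52 at FR8 and 2.82 ± 0.51 (SE) at FR20. PLIN2 was higher than at B in 14 of 15 animals at each timepoint, with animal 10 the exception each time. The libraries of animals 10 and 4 labelled B were nearest to FR8 in their whole profiles, that of animal 4 only weakly (r = 0.068). With the Baseline libraries of animals 17, 19 and 21 kept, the changes were 1.97, 2.50 and 1.52, and without the 7 animals they were 3.37, 4.25 and 2.80.

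CPF animals had PLIN2 at 24.1, 55.3, 46.1, 49.6 and 21.4 CPM at B (animals 3, 7, 8, 13 and 18), a narrow band. At FR2 they had 192, 385, 137, 738 and 760 CPM, and at FR8 animals 7, 8, 13 and 18 had 257, 618, 224 and 873 CPM, so neither timepoint overlapped Baseline. At FR20 the levels were 150, 249, 423, 31.3 and 497 CPM. Animal 13 alone lay in the Baseline band, in a library that was nearest to Baseline in its whole profile. The fitted changes were 3.37 ± 0.84, 3.24 ± 0.88 and 2.56 ± 0.82 (SE) on the log2 scale.

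PNPLA2, the lipase that ABHD5 activates, did not share this course. Its FS levels ran from 28.7 to 130 CPM around a median of 93.3 CPM at B, and the medians were 67.4 CPM at FR2, 32.7 CPM at FR8 and 49.0 CPM at FR20. At FR8, 5 of 18 FS libraries lay below the lowest Baseline value, and the highest FR8 level, 109 CPM, lay among the Baseline values. The fitted log2 changes from B were -0.41 ± 0.21, -1.09 ± 0.22 and -0.98 ± 0.22 (SE), with PNPLA2 lower than at B in 12, 14 and 14 of 15 animals. CPF animals had 74.9, 56.8, 49.7, 34.1 and 101 CPM at B and 71.2, 71.4, 90.1, 82.1 and 56.5 CPM at FR2, ranges that overlapped almost entirely. Their 4 FR8 levels, 21.5, 33.5, 25.3 and 15.3 CPM, were all below the Baseline range. Without the 7 animals the FS change at FR8 was -1.71 ± 0.17, against -1.09 with them.

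ANGPTL4, the secreted lipase inhibitor, also stood lower late in resuscitation. FS medians were 239 CPM before shock (range 52.1 to 376), then 144 CPM at FR2 (range 15.3 to 629), later 79.1 CPM at FR8 (range 27.8 to 330) and finally 67.1 CPM at FR20 (range 25.4 to 221). It was lower than at B in 14 of 15 FS animals at FR8 and in 15 of 15 at FR20, with fitted log2 changes of -1.44 ± 0.33 and -1.60 ± 0.32 (SE). In CPF animals it was at 228, 245, 191, 397 and 180 CPM at B (animals 3, 7, 8, 13 and 18). The FR8 levels of 152, 105, 12.8 and 50.9 CPM in animals 7, 8, 13 and 18 lay below them all. At FR20 animal 8 was at 196 CPM, above its own Baseline value, and animal 13 at 160 CPM, below all 5 Baseline values although the library was nearest to Baseline in its whole profile. The CPF log2 changes were -2.07 ± 0.66 at FR8 and -1.78 ± 0.59 (SE) at FR20.

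MGLL, which frees the last fatty acid, was at a low level. FS medians were 8.25, 10.7, 9.37 and 12.2 CPM from B to FR20, within 3.68 to 39.9 CPM in all 69 FS libraries, and the fitted log2 changes from B lay between 0.16 and 0.48. In CPF animals all 5 levels at FR2 (10.1 to 14.7 CPM) were above all 5 at B (7.56 to 9.75 CPM). The fitted log2 change was 0.53 ± 0.32 (SE), with a 95% interval of -0.11 to 1.18. The share of all genes whose CPF levels were separated in this way was not counted, here or for the other members. LIPE was close to the floor of detection: 0 to 29 counts in any used library, and group medians from 0.478 to 1.38 CPM. The fitted LIPE change furthest from 0 was -1.12 ± 0.55 (SE) on the log2 scale at FR2 in CPF animals, where the library of animal 7 held 0 LIPE counts, which allows up to 3. With the 3 left-out FS Baseline libraries kept, the FS changes of LIPE were -1.35, -1.22 and -0.89 in place of -0.40, -0.36 and -0.05.

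**Figure D2:**
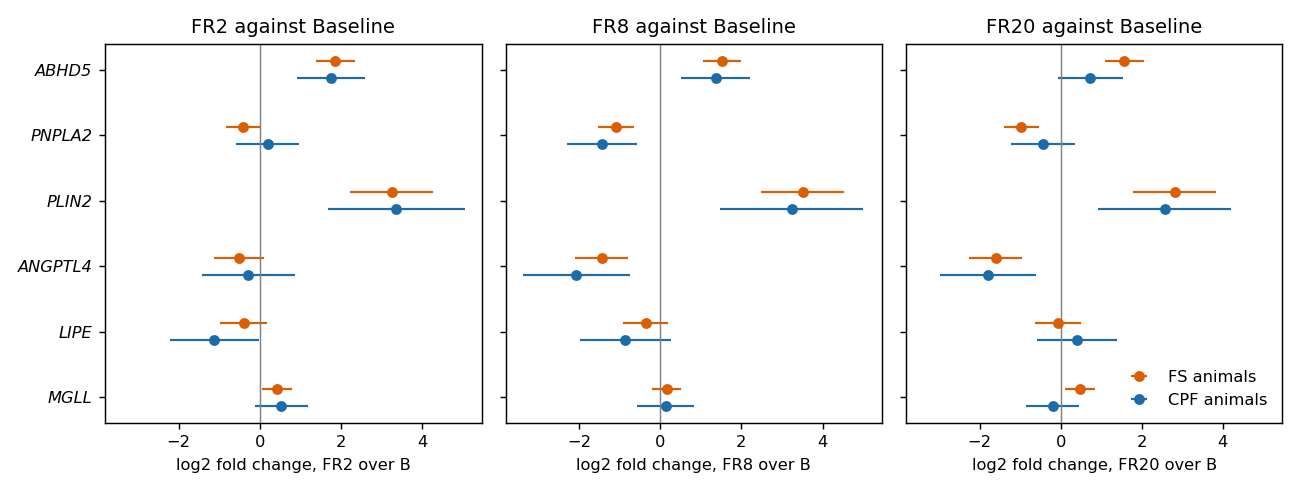
Fitted log2 fold change from Baseline of the 6 genes at FR2, FR8 and FR20, with 95% intervals, in FS (orange) and CPF (blue) animals. The genes were chosen with changes from Baseline known, and the intervals are not corrected for that choice and are not read as tests. The estimates of PLIN2 and ABHD5 lie above 0 at every timepoint and those of PNPLA2 and ANGPTL4 below 0 at FR8 and FR20, and the FS and CPF intervals overlap for every gene at every timepoint.

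The counts of ABHD5 and PNPLA2 were also set against each other within a library, a quantity that no scaling between libraries enters. In FS libraries the median number of ABHD5 counts per PNPLA2 count was 1.45 before shock (range 0.877 to 13.7). It was 8.48 at FR2 (range 4.55 to 19.1), 15.1 at FR8 (range 0.653 to 36.02), and 9.61 at FR20 (range 5.14 to 31.8). In CPF libraries the medians were 2.69, 7.93, 16 and 7.60. These ratios compare read counts and not molecules, since the lengths of the pig transcripts were not used. PLIN2 counts per ABHD5 count went from a median of 0.267 at B to 0.780, 1.21 and 0.776 at FR2, FR8 and FR20 in FS libraries, and from 0.167 to 0.838, 0.951 and 1.05 in CPF libraries.

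Differences between the later timepoints set no Baseline library on either side and were tested in the same fit across 13667 genes (edgeR quasi-likelihood, Benjamini-Hochberg adjustment over all genes). The genes were chosen with earlier results of these data known. Among these was that ABHD5 stood higher from FR2 on, so the tests are not independent of the choice. A gene is counted as called at an adjusted p under 0.05 with a log2 difference of at least 1 in size. ABHD5 passed the threshold between no pair of neighbouring later timepoints, in FS or CPF animals. In FS animals its log2 difference was -0.34 (95% interval -0.76 to 0.08, adjusted p = 0.236) from FR2 to FR8 and 0.04 (-0.39 to 0.48, adjusted p = 0.94) from FR8 to FR20. In CPF animals it was -0.39 (-1.25 to 0.47, adjusted p = 0.603) and -0.64 (-1.501 to 0.23, adjusted p = 0.645), the second with all 4 animals lower at FR20. Both CPF intervals reach beyond a fall of 1 log2 unit. Without animals 17, 19 and 21 the FS difference from FR8 to FR20 was -0.39 and without the 7 animals -0.40, with adjusted p = 0.114 and 0.0675 by edgeR.

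PNPLA2 was the member called between later timepoints. In CPF animals it fell by 1.62 on the log2 scale from FR2 to FR8 (SE 0.43, adjusted p = 0.0179), in 4 of 4 animals and with no overlap between the levels at the 2 timepoints. This was 1 of 6 members, where 4.92% of all genes tested were called. The call was lost without CPF animal 7, 13 or 18, where the log2 difference was -1.60, -1.59 and -1.53, and in the fit without animal terms it held at -1.63. It was also lost in the animals that lived, at -1.84 ± 0.65 (SE, adjusted p = 0.187), a fit in which only CPF animals 13 and 18 had an FR8 library and 1 gene in all was called. ANGPTL4 changed by -1.79 ± 0.63 (SE) in the same comparison, lower in 4 of 4 CPF animals, without passing the threshold (adjusted p = 0.063). By DESeq2 it was called, so that 2 members were, where DESeq2 called 8.58% of all genes. In FS animals none of the 6 was called from FR2 to FR8 by edgeR or DESeq2, which called 5.96% and 6.58% of all genes. PNPLA2 (-0.68 ± 0.21, adjusted p = 0.0115, lower in 12 of 18 animals) and ANGPTL4 (-0.94 ± 0.32, adjusted p = 0.0201, lower in 14 of 18) passed on the adjusted p and missed the size limit, and these were the 2 members with an unadjusted p under 0.05. Both were called in FS animals without animals 17, 19 and 21, at -1.03 (edgeR adjusted p = 4.27e-05) and -1.36 (edgeR adjusted p = 0.000117), and without the 7 animals, at -1.46 and -1.49. The share of all genes called rose in the same fits, to 12.3% and 16.7%.

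From FR8 to FR20 no member was called by edgeR or DESeq2 in FS or CPF animals. Over all genes edgeR called 1.46% and 0.022%, and DESeq2 2.03% and 0.263%. The unadjusted p was under 0.05 for 0 members in FS animals and for 2 in CPF animals, PNPLA2 at a log2 difference of 0.99 ± 0.43 (adjusted p = 0.373) and LIPE at 1.27 ± 0.56 (SE, adjusted p = 0.39), each higher at FR20 in 4 of 4 animals with both libraries. PLIN2 differed by -0.69 (95% interval -1.56 to 0.17, adjusted p = 0.367) in FS animals. Without animals 17, 19 and 21 it was called, at -1.10 ± 0.41 (edgeR adjusted p = 0.0402), and without the 7 animals at -1.45 ± 0.35 (edgeR adjusted p = 0.00108), in fits that called 677 of 13531 and 1050 of 13285 genes, against 200 of 13667 in the full set. In CPF animals PLIN2 differed by -0.68 (-2.32 to 0.96), lower in 4 of 4 animals.

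The feeding comparison asks whether the carbohydrate meal changed the response. No member was called in any of the 18 tests of whether the change from Baseline differed between CPF and FS animals (edgeR, and DESeq2 likewise), and 0 of the 18 had an unadjusted p under 0.05. Over all genes edgeR called 0% at each of the later timepoints, and DESeq2 called 0 genes at FR2 and 2 genes each at FR8 and FR20. The largest difference for ABHD5 was at FR20, -0.84 on the log2 scale (95% interval -1.76 to 0.09, unadjusted p = 0.0761, adjusted p = 1 by edgeR), and MGLL at the same timepoint had -0.68 (-1.42 to 0.06). For PLIN2 the intervals ran from -1.69 to 1.93 at FR2, from -2.20 to 1.67 at FR8 and from -2.09 to 1.59 at FR20, so each still included differences of more than 1 log2 unit in either direction.

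**Figure D3:**
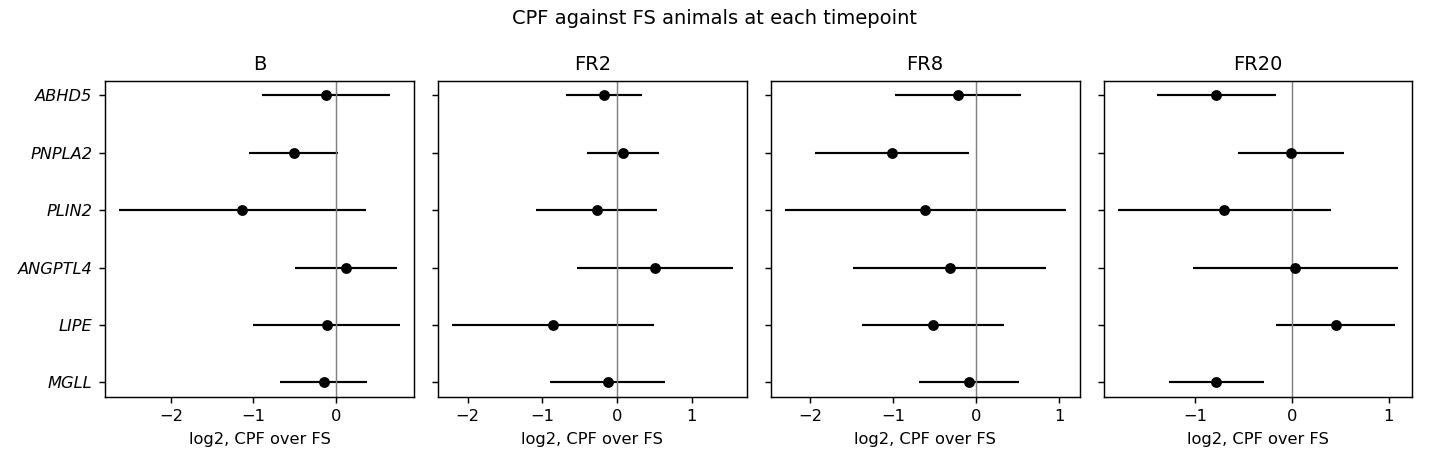
Log2 difference of CPF over FS animals for each of the 6 genes at B, FR2, FR8 and FR20, with 95% intervals from the fit at each timepoint. The intervals of ABHD5 and MGLL at FR20 and of PNPLA2 at FR8 lie below 0, and no adjusted p passed the threshold.

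In the direct comparison of CPF with FS animals at each timepoint, no member was called by edgeR or DESeq2. The share of all genes called by edgeR was 0.0257% at B and 0% at each later timepoint, and by DESeq2 0.265% at B, 0 genes at FR2, 0.0586% at FR8 and 0.0163% at FR20. Among the members, 3 of 24 member tests had an unadjusted p under 0.05. At FR20 ABHD5 was at a median of 267 CPM in CPF against 435 CPM in FS animals, a log2 difference of -0.79 ± 0.30 (SE, unadjusted p = 0.0142, adjusted p = 1 by edgeR), and the groups overlapped between 287 and 391 CPM. MGLL at FR20 was at 6.94 against 12.2 CPM, a difference of -0.78 ± 0.24 (unadjusted p = 0.00287, adjusted p = 1 by edgeR). PNPLA2 at FR8 differed by -1.02 ± 0.45 (unadjusted p = 0.0335, adjusted p = 0.955 by edgeR). Exact two-sided permutation tests of mean log2 CPM, adjusted over the 24 tests, gave 0.187 for ABHD5 and 0.0662 for MGLL at FR20 and 0.419 for PNPLA2 at FR8. Without the 7 animals the ABHD5 difference at FR20 shrank to -0.42 and that of PNPLA2 at FR8 to -0.35.

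Animals labelled as having died were compared with those that lived at each timepoint with a term for feeding. No member was called by edgeR or DESeq2 at B, FR2, FR8 or FR20. Over all genes edgeR called 0% each time, and DESeq2 called 10 genes at B, 3 at FR2 and 0 at FR8 and FR20. Only PNPLA2 at FR20 had an unadjusted p under 0.05, with a log2 difference of -0.63 ± 0.26 (SE, unadjusted p = 0.0229, adjusted p = 0.904 by edgeR). ABHD5 differed by -0.10, -0.12, 0.11 and -0.24 from B to FR20, each with an interval that included 0 and the widest of them, at B, from -0.95 to 0.75.

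Across FS animals at 1 timepoint, the level of each other member was correlated with ABHD5, in 20 relations with permutation p-values (100000 resamples, two-sided) adjusted over the 20. At Baseline PLIN2 followed ABHD5 (n = 15, r = 0.86, permutation adjusted p = 0.00527, Spearman rho = 0.78, permutation adjusted p = 0.02). Animals 4 and 10 were the farthest from the ABHD5 median, and their Baseline libraries were nearest to FR8 in whole profile. Without them r was 0.74 and the permutation adjusted p 0.081. At FR20 r was 0.59 for PLIN2 (n = 18, permutation adjusted p = 0.0326, rho = 0.57, permutation adjusted p = 0.119) and 0.53 without animals 19 and 21 (permutation adjusted p = 0.183). The FR20 libraries of animals 17, 19 and 21 were nearest to FR2. Without these animals r was 0.59 (permutation adjusted p = 0.132). At FR2 r for PLIN2 was 0.44 in the full set (permutation adjusted p = 0.158). At FR8 the libraries fell into separate clusters, the Baseline-like libraries of animals 17, 19 and 21 and the other 15, so that pooled values would describe that split. Among the other 15, r with ABHD5 was 0.21 for PLIN2, -0.34 for PNPLA2 and 0.12 for ANGPTL4, with permutation adjusted p = 0.484 as the lowest of these. ANGPTL4 at Baseline had r = -0.69 (permutation adjusted p = 0.0326), which was -0.35 without animals 4 and 10 (permutation adjusted p = 0.669). No relation of LIPE or MGLL with ABHD5 passed the threshold at any timepoint. In all, 6 of the 20 passed in the full set, 1 without animals 17, 19 and 21, and 0 without the 7 animals or without the 2 farthest animals.

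The gene whose level was most like that of ABHD5 over the 88 libraries was PLIN2, and the reverse held too, with r = 0.86 on log2 CPM among 6133 genes with a symbol and a mean of at least 5 CPM. Next to it came POLR2H (r = 0.83), a shared subunit of the nuclear RNA polymerases, HNRNPU (0.83), a nuclear RNA-binding protein, OSMR (0.83), the receptor for oncostatin M, and KDM1A (0.82), a histone demethylase. Without the 7 animals r between ABHD5 and PLIN2 was 0.84 over 63 libraries. PNPLA2 was most like GYS2 (0.89), the liver glycogen synthase, and HMOX2 (0.87), the constitutive heme oxygenase. ANGPTL4 was most like GADD45B (0.80) and RGCC (0.75), MGLL like ECSCR (0.68) and SRGN (0.68), and LIPE like GRN (0.51) and SLC22A17 (0.49). Without the 2 libraries of animal 11 the order after PLIN2 began with GPAT3 (0.86), an acyltransferase of triglyceride synthesis that was at 0 in both, ahead of HNRNPU, POLR2H and OSMR. In that set EMP3 took the place of SRGN next to MGLL and SNX21 that of SLC22A17 next to LIPE. These values describe likeness only, since the libraries share animals and split by timepoint. Between members, PNPLA2 and ANGPTL4 had r = 0.57, PNPLA2 and PLIN2 -0.54, and ABHD5 and PNPLA2 -0.34.

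**Figure D4:**
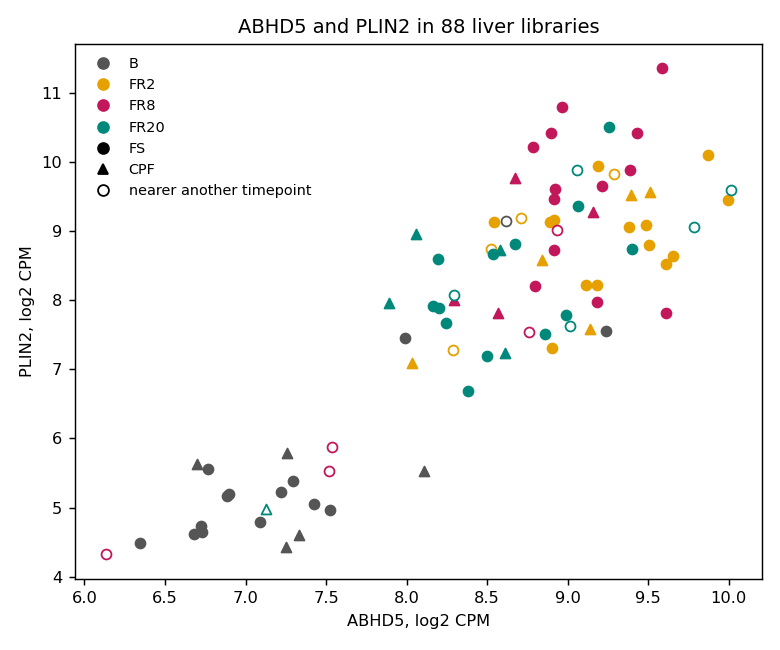
ABHD5 against PLIN2, both in log2 CPM, in 88 libraries coloured by timepoint, with circles for FS, triangles for CPF and open symbols for libraries nearer to another timepoint. PLIN2 is higher where ABHD5 is higher (r = 0.86), and the open FR8 libraries of animals 17, 19 and 21 and the open FR20 library of animal 13 lie among the low values.

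The rest of the pathway was taken from 6 lists with 77 symbols, of which 46 had an identifier, and 47 identifiers were tested against Baseline by edgeR. In FS animals 2 were higher and 6 lower at FR2, 5 higher and 10 lower at FR8, and 7 higher and 6 lower at FR20, beside the 11%, 11.8% and 9.94% of all genes given above. The members of the lists called made up 17%, 31.9% and 27.7% of the 47. The medians of the 47 log2 changes were -0.23, 0.00 and 0.23, beside -0.04, 0.00 and 0.04 over all genes. In CPF animals 0 were higher and 1 lower at FR2, 0 higher and 8 lower at FR8, and 0 were called at FR20 by edgeR (11 at an unadjusted p under 0.05, and 1 by DESeq2), with backgrounds of 2.41%, 8.83% and 0.702%. Without the FR2 and FR8 libraries of animal 11 the FS counts were 6, 14 and 13 genes called, and the CPF counts 1, 12 and 3, beside 10.9% and 11.2% of all genes and 1365 of 13650 in FS and 2.92%, 10.1% and 1.05% of all genes in CPF animals. The genes at 0 in both libraries included 6 listed identifiers, those of HSD17B11, G0S2, PDK4, ACSL4, MTTP and 1 of CD36. The lists were drawn up with earlier results of these data known, so their counts are not independent evidence.

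Among other proteins of the droplet coat and its growth, 8 of 12 were tested. PLIN4, a perilipin of adipocytes and muscle, rose in FS animals by 2.33 ± 0.43 (SE) at FR2, 1.79 at FR8 and 1.37 at FR20 on the log2 scale, from a median of 0.570 CPM at B to 5.34 CPM at FR2. PLIN1, the adipocyte perilipin that holds ABHD5 on the droplet, fell by 1.28 at FR2 and rose by 1.71 ± 0.37 (SE) at FR20, at medians of 1.73, 0.399 and 4.61 CPM at B, FR2 and FR20. CIDEC, which promotes fusion of droplets, rose at FR20 (1.27, SE 0.29, from 7.67 to 20.6 CPM), FITM1, which helps droplets form, rose at FR8 (1.13), and HSD17B11, a droplet-bound dehydrogenase, fell at FR8 and FR20 (-1.66 and -2.41, and -1.46 and -2.37 without the 2 libraries of animal 11). In CPF animals PLIN5 fell at FR8 (-1.04) and the others did not pass, though HSD17B11 did at FR8 and FR20 without those 2 libraries (-1.92 and -2.36, edgeR adjusted p = 0.0243 and 0.0414). Among inhibitors and partners of the lipases, where 5 of 9 were tested, G0S2, a direct inhibitor of PNPLA2, rose in FS animals by 1.12 ± 0.46 at FR2 and 1.83 ± 0.47 (SE) at FR20, from a median of 53.2 CPM at B to 122 and 228 CPM. Without the 2 libraries of animal 11 the changes of G0S2 were 1.31 and 1.82. The list did not go one way, as 1 of its genes was called lower at FR8 in FS animals and 1 in CPF animals.

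The other lipases and hydrolases went both ways, with 6 of 12 tested. ABHD6, a monoacylglycerol hydrolase, rose in FS animals at FR8 and FR20 (1.31 and 1.16), LIPC, hepatic lipase, fell at both (-1.14 and -1.05) and at FR8 in CPF animals (-1.29), and LIPG, endothelial lipase, fell at FR2 and FR20 (-1.496 and -1.67). In triglyceride synthesis, where 5 of 10 were tested, LPIN1, a phosphatidate phosphatase and transcriptional co-activator, fell furthest of all listed genes in FS animals. Its FS medians were 112 CPM at B, 33.9 at FR2, 4.04 at FR8 and 7.95 at FR20, and its log2 change was -1.82 ± 0.46 at FR2, -3.90 ± 0.56 at FR8 and -3.95 ± 0.50 (SE) at FR20. In CPF animals it fell by 4.52 ± 1.07 (SE) at FR8. LPIN3 fell at FR8 in FS and CPF animals (-1.65 and -1.84) and DGAT1, which makes triglyceride from diglyceride, fell at FR8 in CPF animals (-1.17). AGPAT2 (1.21 at FR8) and GPAM (1.11 at FR20), acyltransferases of the same route, rose in FS animals.

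Of the genes for the fates of fatty acids, 11 identifiers of 9 symbols were tested. ACSL1, which activates fatty acids, rose at FR8 in FS animals (1.13), PDK4, which restrains glucose oxidation, fell at FR8 and FR20 (-1.99 and -1.71), and 2 of the 3 identifiers that carry CD36, a fatty acid transporter, fell at FR8 (-1.38 and -1.26). Without the 2 libraries of animal 11 PDK4 changed by -1.83 and -1.79, and the CD36 identifiers by -1.28 (edgeR adjusted p = 0.0677, no longer called) and -1.06. Reads of these 3 could be split between copies of 1 gene, so their values are uncertain. CPT1A, the entry step of mitochondrial oxidation, fell at FR8 in CPF animals (-1.59). Of 12 genes tested in signalling and transcription of lipolysis, FOXO1, a fasting-induced transcription factor, fell in FS animals at FR2, FR8 and FR20 (-1.43, -1.31 and -1.49) and in CPF animals at FR2 and FR8 (-1.74 and -1.96). SIRT1, a deacetylase, fell in FS animals at FR2 and FR8 (-1.02 and -1.20), ADRB1, an adrenergic receptor, fell at FR2 (-1.11), and PPARG, the adipogenic receptor, rose at FR20 (1.36). At FR2 SIRT1 and ADRB1 missed the size limit without the libraries of animal 11 (-0.94 and -0.98).

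**Figure D5:**
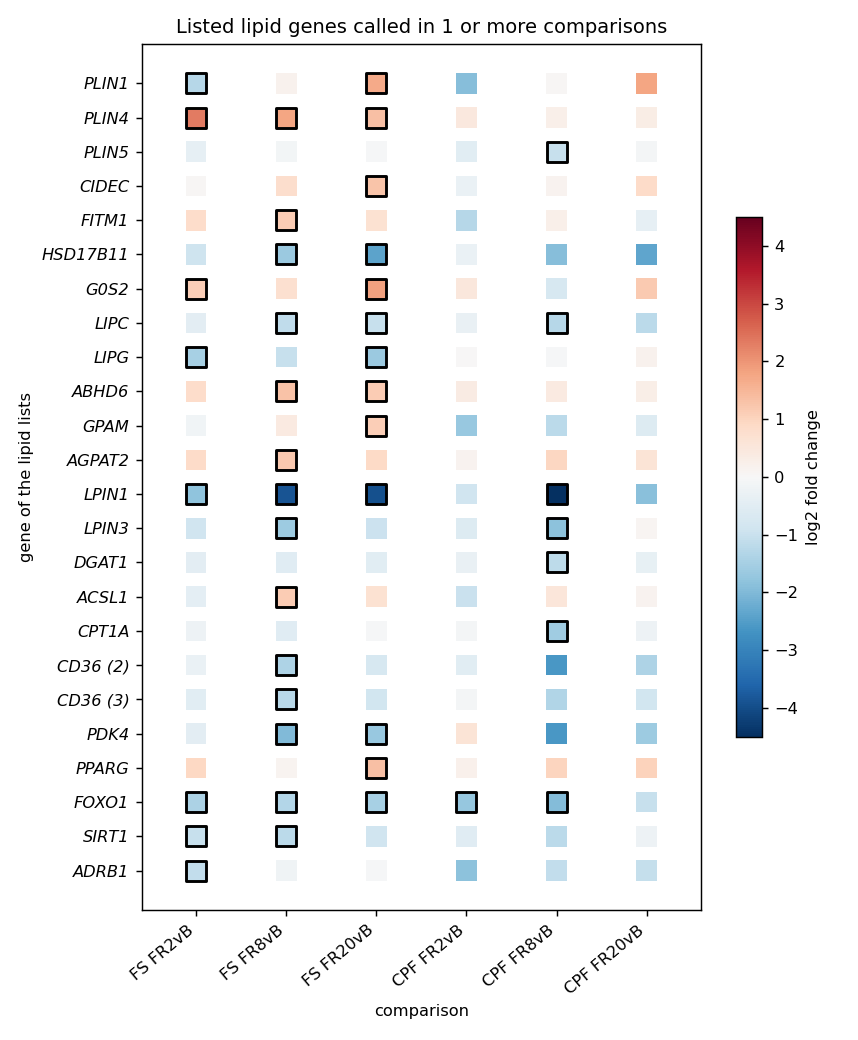
Log2 fold change from Baseline of the listed lipid genes called in at least 1 of the 6 comparisons and reported here, by colour, in FS and CPF animals at FR2, FR8 and FR20, with a black frame where the gene was called. LPIN1 shows the deepest falls, FOXO1 is framed in 5 of the 6 comparisons, and PLIN4 is framed in each FS comparison. Numbers after CD36 tell its identifiers apart.

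Markers of liver cell types moved over the same time. The summed level of 7 hepatocyte markers with an identifier (of 8) had a median of 225300 CPM at B, 153600 at FR2, 81490 at FR8 and 58850 at FR20 in FS animals, within 27830 to 254000 CPM in all, and ALB changed by -0.71, -1.43 and -2.22 on the log2 scale, the last 2 called. Neutrophil markers (4 of 6 with an identifier) had summed medians of 1.04, 15.02, 7.27 and 5.47 CPM in FS animals, within 0 to 52.5 CPM, with 3, 3 and 4 of the 4 called higher and S100A8 higher by 3.29, 2.57 and 1.94. The adipocyte markers ADIPOQ and LEP and the macrophage marker CD163 had no identifier, and the summed adipocyte list (medians 5668, 4737, 4046 and 3366 CPM) was nearly all RBP4, which hepatocytes also express. ACTA1 stayed at or under 68.4 CPM in every used library with medians of at most 0.188 CPM, and HBB, the red cell marker, had medians of 248, 239, 116 and 107 CPM in FS animals. HBB was called lower at FR8 and FR20 (-1.69 and -1.58). HBB, APOA1 and APOC3 were among the genes at 0 in the 2 libraries of animal 11. Without those libraries HBB changed by -1.46 and -1.54, and ALAS2, the erythroid gene called at FR2 (-1.13), missed the size limit (-0.99). Of 3 erythroid genes tested 1, 2 and 2 were lower in FS animals at FR2, FR8 and FR20, of 4 adipocyte genes 1 was lower at FR2 and 2 higher at FR20 (PLIN1 and CIDEC, both also on the droplet list), and of 3 muscle genes none was called by edgeR. Of 4 macrophage genes 1 was lower at FR8 and at FR20, 1 of 3 endothelial and stellate genes was lower at FR8, and neither of 2 cholangiocyte genes was called. In CPF animals 2 hepatocyte genes were lower at FR8 and 3 at FR20, and 2 neutrophil genes were higher at FR2 and 1 at FR8. In bulk liver, fewer cells of a type and less RNA per cell cannot be told apart, and the part of these shifts in the levels of the 6 genes was not tested.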

How the data were processed

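Poly(A) RNA of 92 biopsies that the study describes as liver was sequenced as single reads on an Illumina instrument. Per the labels and the study's methods, the authors called bases with CASAVA 1.8.2, aligned reads to pig assembly Sscrofa10.2 with TopHat 1.5.0, and used SAMtools, HTSeq-count and edgeR 3.2.4. The counting mode and strand setting are not given in the sources used here, so overlapping genes may share reads. The deposited values are raw counts per Ensembl pig gene.

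The counts were fitted here with edgeR 4.0.16 in R 4.3.3 (TMM scaling, genes with CPM summing to at least 10, quasi-likelihood test, two-sided, Benjamini-Hochberg adjustment). The model held a term for each animal and separate time terms for FS and CPF animals. Comparisons at 1 timepoint were fitted on that timepoint's libraries, with a feeding term for died against lived. Scripts were tested on simulated counts. Libraries were paired by the animal code in the labels, and deviations of libraries of 1 animal from their group means correlated with a median r of 0.21 over 126 pairs, against -0.02 over 1791 pairs of different animals. Animals are the replicates.

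The members and lists were chosen with earlier results of these data known. Named genes were the 6 members, up to 3 called genes in each direction per lipid list and comparison with Baseline, defining cell markers, and the genes most like each member (5 for ABHD5, 2 for each other member). MARCO, DCN and other markers enter only as counts. Alternatives were other scalings, filters and tests (DESeq2 1.42.0, likelihood ratio), no replicate block, survivors only, and leaving out each animal. Leave-one-animal fits kept the dispersion trend of the full fit. Leaving out animals 17, 19 and 21, the 7 animals with a library nearer to another timepoint, or the FR2 and FR8 libraries of animal 11, was chosen after seeing the data. Symbols came from the study's own table and a gene name table, and intervals of counts cover counting error only. A listed lipid gene that enters the counts is not reported here by name.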

Additional observations from a re-analysis of the deposited data

Results flagged for a closer look

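PNPLA2 was at 96.7 CPM in CPF animal 13 at FR20, far from the other 4 CPF animals, of which the nearest had 49.5 CPM. This was 1 of 24 groups of 4 to 10 samples tested for a sample far from the others, and about 1 in 20 such groups is picked out by chance. The same library was nearest to Baseline in its whole profile, and the part of that in the PNPLA2 value was not tested.

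The 3 Baseline libraries left out for lack of albumin held 4 of the members above the range of the used FS Baseline libraries, in CPM of each library's own total. In animals 17, 19 and 21, PLIN2 was at 859, 847 and 2563 CPM against at most 628 in the used libraries. PNPLA2 was at 186, 399.8 and 293 CPM against at most 110.4, LIPE at 8.91, 17.7 and 12.5 CPM against at most 1.91, and MGLL at 61.8, 85.9 and 88.1 CPM against at most 17.2. ABHD5 (82.0, 83.0 and 85.4 CPM) lay inside the used range of 67.3 to 623 CPM. ANGPTL4 was below the used range of 57.6 to 301.9 CPM in animal 17 (46.6 CPM) and inside it in animals 19 and 21 (92.7 and 183 CPM). ACTA1 was at 18970 to 27280 CPM in these libraries, and the source of these levels was not tested.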

How the results depend on the processing

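Of 223 values of the main comparisons under other settings, 194 stayed close to the reported value, and 415 of 437 did when 1 animal was left out. For a count, close meant within a fixed factor of the reported count, or at 0 where that was 0. For an ABHD5 change from Baseline it meant a shift smaller than the SD of that change between animals. Neither rule asked whether a call was kept. Member counts of 0 in fits that called almost no gene, and CPF values with an FS animal left out, were included. Closeness was thus partly fixed in advance and is no measure of robustness. Members called from FR2 to FR8 in FS animals numbered 0, and 2 without animals 17, 19 and 21, without the 7 animals or by adjusted p alone, as the genes called of all went from 5.96% to 12.3%, 16.7% and 3875 of 13667. From FR8 to FR20 in FS animals the count went from 0 to 1 without either set of animals (200 genes in all to 677 and 1050). From FR2 to FR8 in CPF animals it went from 1 to 2 under DESeq2 or the likelihood ratio test and without either set (4.92% of all genes to 8.58%, 7.40%, 9.43% and 8.88%), and to 0 in survivors (1 gene in all). Lipid genes called in FS animals went from 8, 15 and 13 to 23, 26 and 29 by adjusted p alone (of all genes, 5653, 5374 and 4617 in place of 1505, 1617 and 1358), and at FR2 to 3 in survivors (1340 of 13342 genes). In CPF animals at FR2 they went from 1 to 3 by DESeq2 and without the 7 animals, and to 2 by the likelihood ratio test and without animals 17, 19 and 21, as the share of all genes went from 2.41% to 3.99%, 3.98%, 3.75% and 4.26%. At FR8 they went from 8 to 2 with the 3 left-out libraries kept and in survivors (8.83% of all genes to 2.94% and 0.427%). At FR20 they went from 0 to 1 by filterByExpr, DESeq2, the likelihood ratio test and without animals 17, 19 and 21 (0.702% of all genes to 0.930%, 2.21%, 1.79% and 2.83%), to 3 without the 2 libraries of animal 11 (1.05%) and to 7 without the 7 animals (7.78%). Correlations past the threshold went from 6 to 0 without the 2 farthest animals, 1 without animals 17, 19 and 21 and 0 without the 7. Leaving out 1 animal moved members called from FR2 to FR8 between 0 and 1 in FS (1 without FS animal 10, 17, 19 or 21, ANGPTL4 each time) and 0 and 2 in CPF animals. It moved the lipid genes called between 6 and 12, 14 and 16, and 13 and 17 in FS animals and between 0 and 2, 1 and 12, and 0 and 4 in CPF animals. The cause of these shifts was not tested.

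Small ABHD5 differences changed sign. From FR8 to FR20 in FS animals (0.04) it was -0.0055 without the replicate block, -0.39 without animals 17, 19 and 21 and -0.40 without the 7, and -0.11 to 0.10 leaving out 1 animal. In survivors the CPF minus FS difference in change was 0.52 at FR2 and 0.22 at FR8 (-0.10 and -0.16), and leaving out 1 animal gave -0.38 to 0.26 at FR2. CPF against FS at B (-0.12) was 0.032 with the 3 libraries kept, 0.019 without the 7 and -0.37 to 0.12 leaving out 1 animal. Died against lived at B (-0.10) was 0.024 and 0.0046 under the same settings and -0.34 to 0.088 leaving out 1 animal, at FR2 (-0.12) it was -0.30 to 0.040, and at FR8 (0.11) it was -0.048 and -0.18 without the 2 sets of animals. PLIN2 from FR2 to FR8 in CPF animals (-0.13) was 0.16 without the replicate block, 0.46 without the 7 animals and -0.58 to 0.46 leaving out 1 animal. The replicate block changed no call of a member between later timepoints. LIPE at FR2 could not be tested at that timepoint alone without the 7 animals, and its counts of 0 to 29 in the used libraries limit it throughout.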
